A study of Mus musculus with 8 samples.

Results

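Hepatic drug and organic anion transporters were described as 9 genes in livers of mice heterozygous for eIF2α and of wild-type mice: the uptake carriers Slco1a1, Slco1a4, Slco1b2, Slco2b1 and Slc22a7, and the efflux pumps Abcc2, Abcc3, Abcg2 and Abcb1a. They were taken by gene symbol from the 56077 rows of the deposited count table. All 9 were found and passed the filter on low counts, which left 14261 genes. The 4 heterozygous livers (genotype written as Eif2a flox/+, strain C57BL/6) and the 4 wild-type livers (C57BL/6, described as controls) came from fed, lean mice aged 6 months and killed in the early morning. No recombinase is named for the floxed allele, and the growth notes of both groups call the animals wild-type. Sex is not labelled either. By their column names, the heterozygous libraries are H11, H12, H15 and H75 and those of wild type W32, W33, W76 and W90. Nothing in the labels says that the animals came from separate litters, so p-values measure only the spread between these samples.

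The liver clears drugs, bilirubin, hormones and bile acids in steps. Carriers of the OATP (Slco) and OAT (Slc22) families on the blood-facing membrane bring organic anions into the hepatocyte. ATP-driven pumps then move them or their conjugates into bile across the canalicular membrane (Abcc2, Abcg2, Abcb1a) or back to blood across the basolateral membrane (Abcc3). In mice several of these genes differ between the sexes: Slco1a1 is known as male-predominant in liver and Slco1a4 as female-predominant.

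The Slco1 genes lie in 1 region of chromosome 6 (GRCm38, GENCODE M21), and other genes between them were not looked for. Slco1b2 runs from 141629518 to 141686646 on the plus strand, Slco1a4 from 141805440 to 141856199 and Slco1a1 from 141907282 to 141946962 on the minus strand. RefSeq windows upstream of the start were found for 7 of the 9 genes, the exceptions being Slc22a7 and Abcc3. The 250 bases before the RefSeq start of each of these Slco1 genes (GRCm38.p6) are printed 5′ to 3′ on the gene's strand, because Slco1a1 and Slco1a4 were at opposite extremes in wild-type library W32 (values below). Capitals mark matches, on either strand, to GTTAAT (a half-site of hepatocyte nuclear factor 1), TTCNNNGAA (STAT factors) and AGGTCA (a nuclear receptor half-site).
Slco1a1, chr6:141946963-141947212, minus strand: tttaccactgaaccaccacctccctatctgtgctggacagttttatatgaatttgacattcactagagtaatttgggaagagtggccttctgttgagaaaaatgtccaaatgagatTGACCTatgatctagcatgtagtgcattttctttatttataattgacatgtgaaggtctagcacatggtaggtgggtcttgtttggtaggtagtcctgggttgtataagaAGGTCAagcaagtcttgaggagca
Slco1a4, chr6:141856221-141856470, minus strand: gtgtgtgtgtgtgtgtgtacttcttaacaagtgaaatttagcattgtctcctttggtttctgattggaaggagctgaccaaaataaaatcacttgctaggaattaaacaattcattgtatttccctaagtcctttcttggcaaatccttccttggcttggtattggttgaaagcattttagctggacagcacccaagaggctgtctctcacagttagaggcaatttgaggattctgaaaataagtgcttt
Slco1b2, chr6:141629268-141629517, plus strand: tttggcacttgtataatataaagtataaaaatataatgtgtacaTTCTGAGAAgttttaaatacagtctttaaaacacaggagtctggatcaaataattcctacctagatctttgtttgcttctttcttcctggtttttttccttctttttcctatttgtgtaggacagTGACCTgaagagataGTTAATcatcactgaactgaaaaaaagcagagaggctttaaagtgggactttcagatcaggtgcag
The Slco1b2 window held 1 match to each of the 3 motifs, and none overlapped another. The Slco1a1 window held 2 AGGTCA matches, and the Slco1a4 window held 0 matches to any of them. Of 32851 RefSeq windows of this length, 6.43% held GTTAAT, 7.02% TTCNNNGAA and 14.0% AGGTCA. A match describes letters and not a bound site.

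Library totals ran from 22177979 to 28564357 counts in heterozygous and from 25626355 to 27799097 in wild-type libraries. The 9 transporters took 0.188 to 0.244% of the counts in heterozygous and 0.201 to 0.245% in wild-type libraries. Eif2s1, which encodes eIF2α, had 20.5, 22.3, 20.8 and 25.1 CPM (counts scaled to a common library size with TMM factors) in heterozygous libraries, against 28.4, 28.8, 32.8 and 30.1 CPM in wild-type libraries, with no overlap (adjusted p = 0.315, edgeR). Hepatocyte markers were abundant in both groups, led by Alb at 70743 ± 4187 CPM in heterozygous and 71898 ± 9746 CPM in wild-type livers and by Apoa1 at 7310 ± 1021 and 5424 ± 1826 CPM in the same order of groups (SD, n = 4 each). Of these 8 markers 7 had higher means in heterozygous livers and 1, Alb, a lower mean, with 0 called. Their median log2 fold change was 0.17. All 8 libraries expressed Y-linked genes: Ddx3y was at 35.2 to 57.0 CPM in heterozygous and 44.1 to 56.8 CPM in wild-type libraries. Xist had at most 11 counts in a library.

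None of the 9 transporters passed edgeR's quasi-likelihood test at an adjusted p of 0.05, where the background was also 0% (0 of 14261 genes called). Slc22a7 had a higher mean in heterozygous livers by 1.71-fold and Slco1a4 a lower mean, at 0.586-fold. The other 7 lay between 0.829-fold and 1.09-fold of wild type. At an unadjusted p under 0.05 there was 1 transporter, Slc22a7, against 9.34% of all genes. In 0 of the 9 did the groups separate, against a background of 4.38% of genes whose groups do not overlap. The median log2 fold change was -0.10 over the 9 genes, with 2 higher and 7 lower means, beside 0.0051 over all genes tested. In bulk tissue fewer cells of a type and less RNA per cell cannot be told apart.

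**Figure D1:**
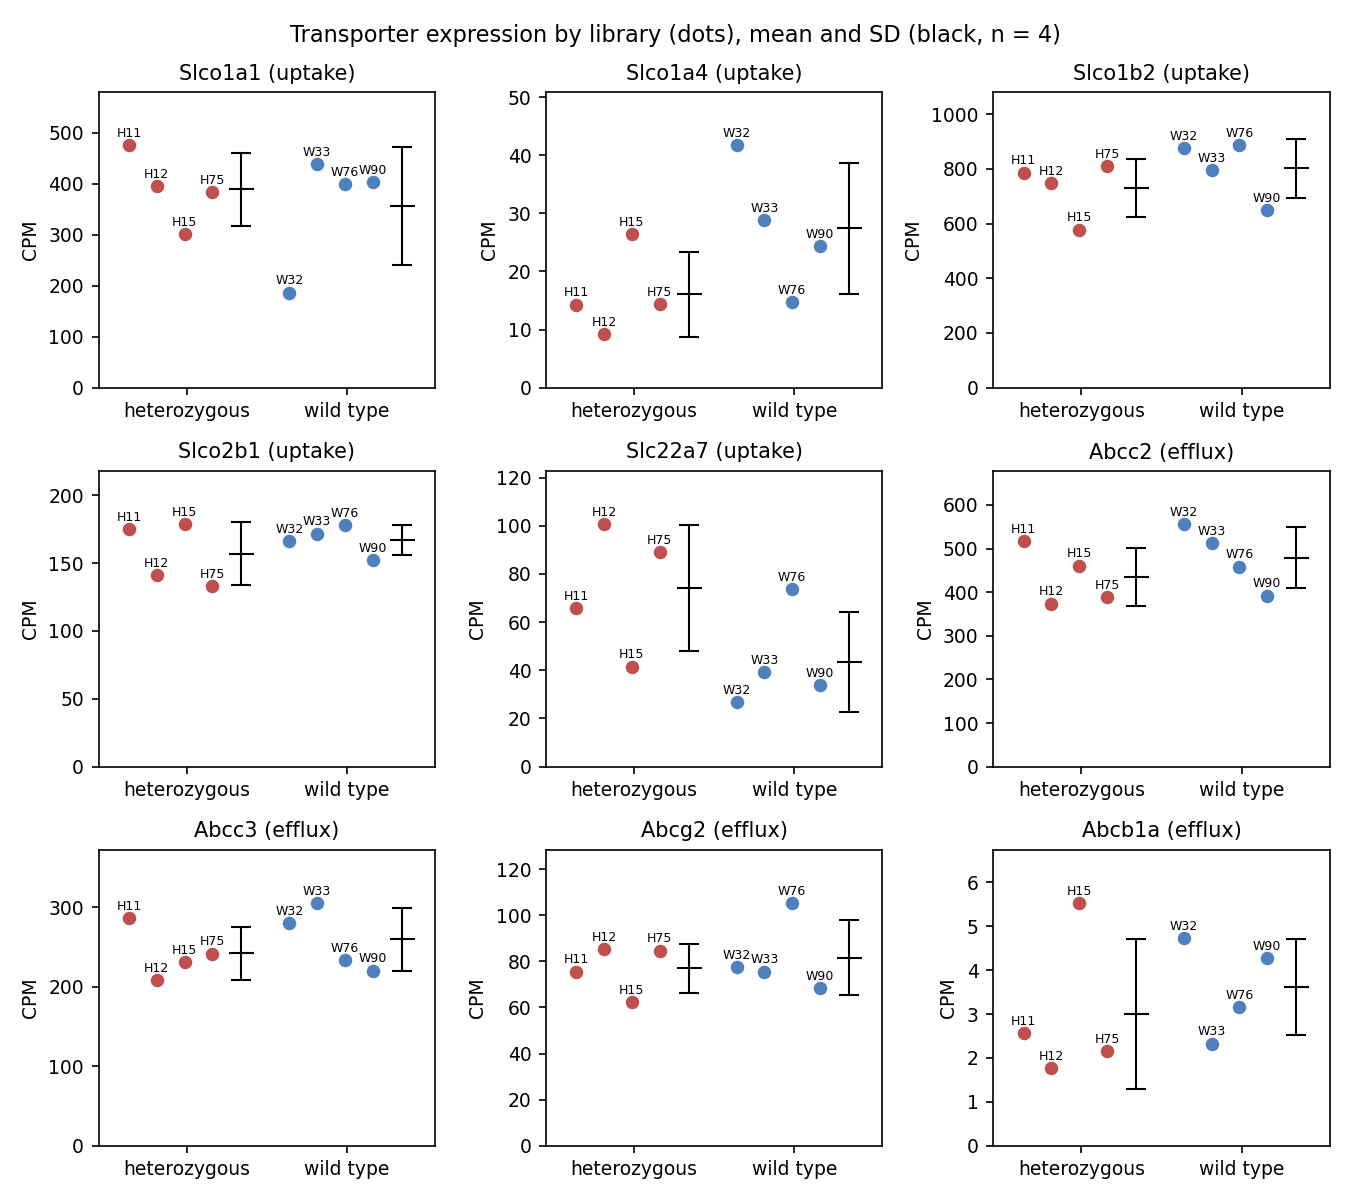
CPM (vertical axes from 0) of the 9 transporters in each of 4 heterozygous (red) and 4 wild-type (blue) libraries, with the mean and SD of each group in black. Red and blue dots overlap in every panel, and W32 is the low wild-type dot for Slco1a1 at 186 CPM.

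Ranked per length, as CPM per kilobase of the gene length in the authors' deposited table, Slco1b2 was the most abundant of the 9. That length was taken as deposited, and close ranks and ratios between genes depend on it. Slco1b2, the mouse relative of the human hepatic OATP1B carriers, averaged 221 ± 31.7 CPM per kilobase in heterozygous and 242 ± 32.9 in wild-type livers (SD, n = 4 each). Its lowest library stood above the highest library of every other transporter. Slco1a1 followed at 115 ± 21.0 and 105 ± 33.9 CPM per kilobase, then Abcc2 at 54.2 ± 8.31 and 59.7 ± 8.78, heterozygous before wild type. Abcc3 was at 48.3 ± 6.58 in heterozygous and 51.8 ± 7.92 in wild-type livers. Abcc2 exceeded Abcc3 in 8 of 8 libraries, although their ranges over libraries overlapped. Slco2b1 averaged 35.9 ± 5.30 and 38.2 ± 2.52 CPM per kilobase and Slc22a7 37.4 ± 13.2 and 21.8 ± 10.4. These neighbours changed places: Slco2b1 was the higher in 6 of 8 libraries, the exceptions being H12 and H75. Abcg2, at 13.5 ± 1.88 and 14.3 ± 2.83 CPM per kilobase, and Slco1a4, at 7.14 ± 3.25 and 12.2 ± 4.98, overlapped, and Slco1a4 was the higher in H15 and W32. Abcb1a was the lowest in all libraries, at 0.601 ± 0.342 and 0.725 ± 0.218 CPM per kilobase.

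**Figure D2:**
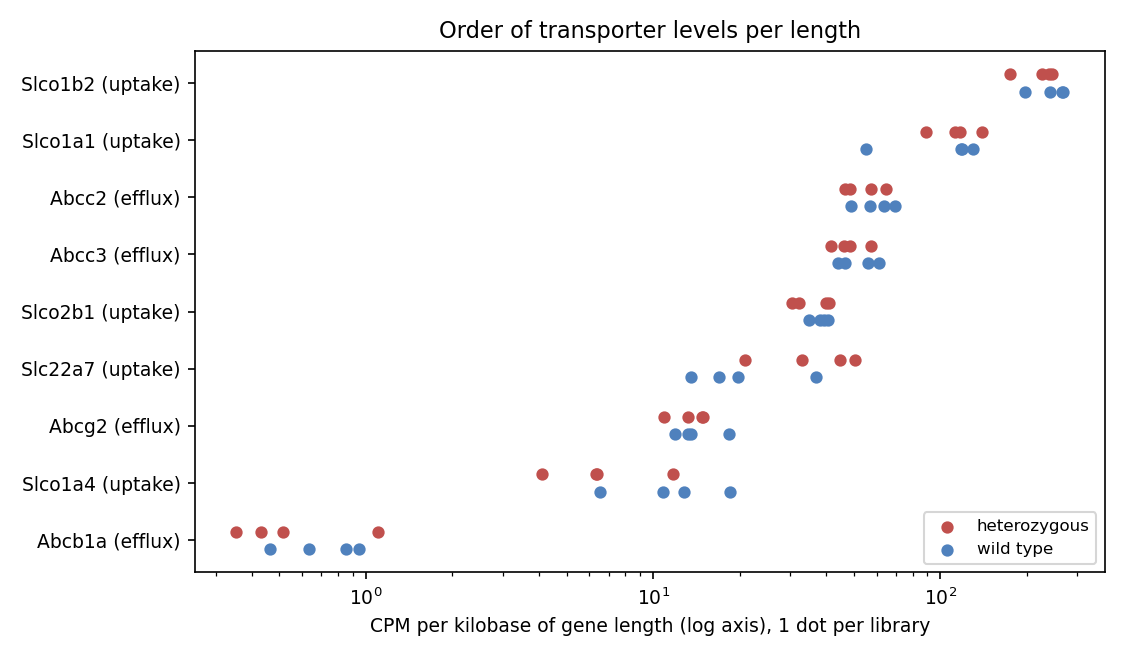
Level of each transporter per length (CPM per kilobase, log axis) with 1 dot per library, heterozygous in red above wild type in blue. Slco1b2 stands apart at the top, Abcb1a at the bottom, and Slc22a7, Slco1a4 and Abcb1a spread more widely than Slco2b1 and Abcg2.

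Among the uptake carriers, Slc22a7 had the largest positive difference. It encodes OAT2, a basolateral carrier of organic anions that include nucleotides and some drugs, and lies on chromosome 17 from 46432183 to 46438457 on the minus strand. Its level was 65.8, 101, 41.6 and 89.2 CPM in H11, H12, H15 and H75 of the heterozygotes, against 26.9, 39.2, 73.6 and 33.9 CPM in W32, W33, W76 and W90 of wild type. H15 was the lowest heterozygous library, and W76, the highest wild-type one, lay above both H11 and H15. The log2 fold change was 0.78 (SE 0.34, 95% interval 0.022 to 1.53), with an unadjusted p of 0.0448 and an adjusted p of 0.521 (edgeR). Leaving out 1 library gave values from 0.60 (without H12, adjusted p = 0.910, edgeR) to 1.16 (without W76, adjusted p = 0.608, edgeR). The unadjusted p was above 0.05 without any one of H11, H12, H75, W32, W33 or W90, at 0.0552 to 0.123 (edgeR). It was 0.0108 without H15 (adjusted p = 0.166) and 0.00299 without W76 (adjusted p = 0.608), by the same test. The 17 alternatives gave adjusted p-values of 0.166 to 0.910. These levels rested on 979 to 2612 counts per heterozygous and 789 to 1910 per wild-type library. In the authors' deposited table Slc22a7 had a log2 fold change of 0.78. Its p-value there was 0.0703 and its adjusted p-value 0.589, and it was not marked significant.

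Slco1a4 had the largest negative difference. It encodes OATP1A4, a basolateral carrier that also transports digoxin in rodents. It was at 14.3, 9.21, 26.4 and 14.4 CPM in H11, H12, H15 and H75, against 41.7, 28.8, 14.7 and 24.4 CPM in W32, W33, W76 and W90. H11, H12 and H75 were below every wild-type library, while H15 lay within the wild-type range. The log2 fold change was -0.77 (SE 0.35, 95% interval -1.56 to 0.016), with an unadjusted p of 0.0539 and an adjusted p of 0.544 (edgeR). Single libraries moved this value widely. It was -0.49 without W32 (adjusted p = 0.844) and -1.12 without H15 (adjusted p = 0.124). These adjusted p-values are edgeR's, and the 17 alternatives spanned 0.124 to 0.910. In the authors' deposited table Slco1a4 had a log2 fold change of -0.77 with a p-value of 0.0208 and an adjusted p-value of 0.367, and it was not marked significant.

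The same 4 libraries, H11, H12, H75 and W76, held the 4 highest levels of Slc22a7 and the 4 lowest of Slco1a4. W32 held the lowest Slc22a7 and the highest Slco1a4. This ordering was read from the values, so it is a description of these 8 libraries.

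Slco1a1, which encodes OATP1A1, a carrier of bile acids, steroid conjugates and thyroid hormones, did not separate the genotypes. It had 476, 396, 301 and 383 CPM in H11, H12, H15 and H75, against 186, 439, 399 and 403 CPM in W32, W33, W76 and W90. W32 was far below the other wild-type libraries and below every heterozygous library. The log2 fold change was 0.12 (SE 0.25, 95% interval -0.42 to 0.67, adjusted p = 0.903, edgeR). Without W32 it changed sign, to -0.088 (SE 0.15, adjusted p = 0.939, edgeR). Slco1a1 exceeded Slco1a4 per length by 7.57 to 28.5 times in heterozygous libraries and by 2.96 to 18.0 times in wild-type libraries, with the lowest ratio in W32.

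The 2 remaining uptake carriers had the narrowest spread of the 5, relative to their means. Slco1b2 had 787, 749, 578 and 809 CPM in H11, H12, H15 and H75, against 875, 796, 886 and 650 CPM in W32, W33, W76 and W90. Its lowest libraries were H15 and W90, 1 in each genotype. The log2 fold change was -0.13 (SE 0.14), and its 95% interval of -0.45 to 0.18 corresponds to 0.734-fold to 1.13-fold. Slco2b1, a broadly expressed carrier of steroid sulfates, had 175, 141, 179 and 133 CPM in H11, H12, H15 and H75 of the heterozygotes, against 166, 172, 178 and 152 CPM in W32, W33, W76 and W90 of wild type. H12 and H75 were the 2 lowest. Slco2b1 lies on chromosome 7 from 99657804 to 99711340, and its log2 fold change was -0.089 (95% interval -0.35 to 0.17).

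**Figure D3:**
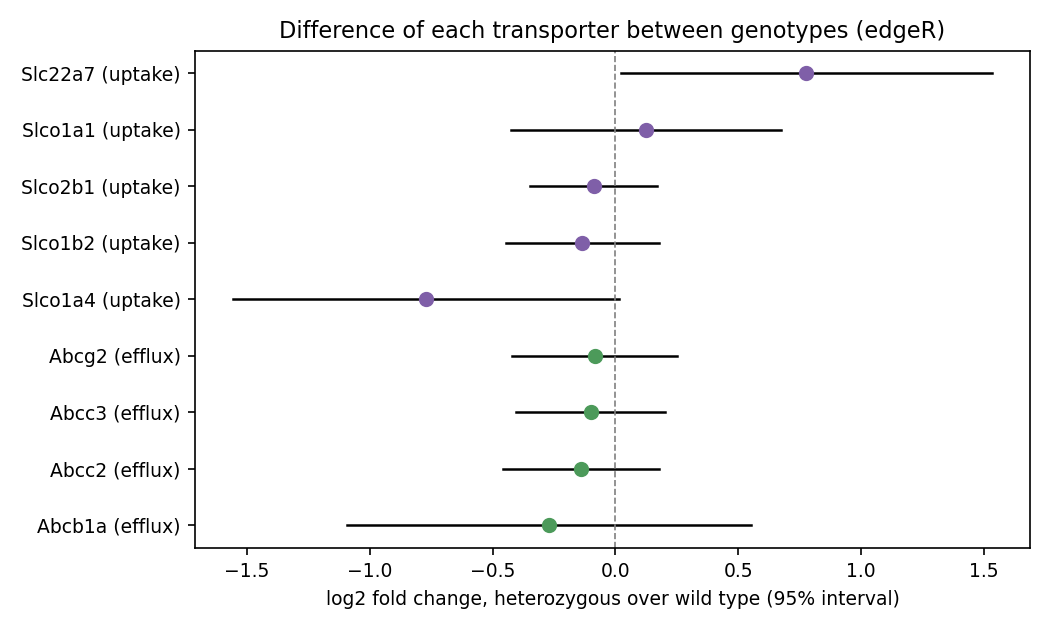
Log2 fold change of each transporter, heterozygous over wild type (edgeR), with its 95% interval as a black line, for uptake carriers (purple) and efflux pumps (green). The interval of Slc22a7, 0.022 to 1.53, lies just above 0, that of Slco1a4 reaches 0.016, and the other 7 lie across 0.

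All 4 efflux pumps had lower means in heterozygous livers, with 0 called, and the intervals of the 3 abundant ones were narrow. Abcc2 (MRP2), which exports conjugated bilirubin into bile, lies on chromosome 19 from 43782192 to 43840740. It had 517, 373, 461 and 389 CPM in H11, H12, H15 and H75, against 556, 512, 458 and 392 CPM in W32, W33, W76 and W90. Most libraries of both genotypes fell in a common range, with H12 and H75 lowest. The log2 fold change was -0.14 (SE 0.14, 95% interval -0.46 to 0.18, adjusted p = 0.785, edgeR).

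Abcc3 (MRP3), which returns glucuronides to blood, lies on chromosome 11 from 94343295 to 94392997. It was at 287, 208, 231 and 242 CPM in H11, H12, H15 and H75, against 280, 305, 233 and 220 CPM in W32, W33, W76 and W90. The high libraries H11, W32 and W33 came from both genotypes. Its log2 fold change was -0.10 (95% interval -0.40 to 0.20). Abcg2 (BCRP), a canalicular pump for sulfated conjugates and drugs, lies on chromosome 6 from 58584523 to 58695676. It was at 75.5, 85.3, 62.3 and 84.6 CPM in H11, H12, H15 and H75, against 77.4, 75.6, 105 and 68.3 CPM in W32, W33, W76 and W90. W76 alone was above 100 CPM. Its log2 fold change of -0.085 (95% interval -0.42 to 0.25) turned to 0.062 without W76 and to 0.0031 without H15.

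Abcb1a, 1 of the 2 mouse genes for P-glycoprotein, was measured on 43 to 130 counts per heterozygous and 65 to 139 per wild-type library. It lies on chromosome 5 from 8660077 to 8748575. Its levels were 2.57, 1.77, 5.52 and 2.15 CPM in H11, H12, H15 and H75, against 4.73, 2.32, 3.16 and 4.27 CPM in W32, W33, W76 and W90. H15 was the highest of all 8 libraries. The log2 fold change was -0.27 (SE 0.37, 95% interval -1.09 to 0.55, adjusted p = 0.848, edgeR), and without H15 it was -0.74 (adjusted p = 0.237, edgeR), against -0.082 without H12. Of the distinct 50-base words in Abcb1a transcripts, 17.6% also occur in transcripts of other genes, with 889 of the 961 shared words in Abcb1b, so its count depends on how shared reads were assigned. The other P-glycoprotein gene, Abcb1b, had 2.37, 3.27, 1.32 and 3.30 CPM in H11, H12, H15 and H75, against 0.715, 1.39, 2.04 and 1.59 CPM in W32, W33, W76 and W90. It was high where Abcb1a was low among heterozygous libraries, and its log2 fold change was 0.84 (SE 0.37, adjusted p = 0.526, edgeR). The pair summed to 5.57 ± 0.875 CPM in heterozygous and 5.06 ± 0.935 CPM in wild-type livers (SD, n = 4 each). For Slco1a1 and Slco1a4 the share of such words was 1.64 and 1.61%, and for the other 6 members at most 0.663%. Exons of Slco2b1 overlap Gm15635 and Gm34280, and exons of Abcb1a overlap Gm42686, on the opposite strand. No source used here says if reads were counted by strand.

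Set against each other, uptake and efflux did not part the genotypes. The mean log2 level of the 5 uptake carriers, relative to the wild-type mean, was 0.082, -0.050, -0.088 and 0.039 in H11, H12, H15 and H75, against -0.12, 0.11, 0.11 and -0.098 in W32, W33, W76 and W90. That of the 4 efflux pumps was -0.061, -0.38, 0.019 and -0.25 in heterozygous libraries, against 0.18, -0.077, 0.012 and -0.11 in wild-type libraries. H12 and H75 were the lowest for efflux. Uptake minus efflux averaged 0.16 ± 0.20 in heterozygous libraries, and wild-type libraries, centred at 0 by construction, had an SD of 0.21. Within the uptake carriers Slc22a7 and Slco1a4 had differences of opposite sign. The median log2 fold change was -0.089 over the uptake carriers and -0.12 over the efflux pumps.

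**Figure D4:**
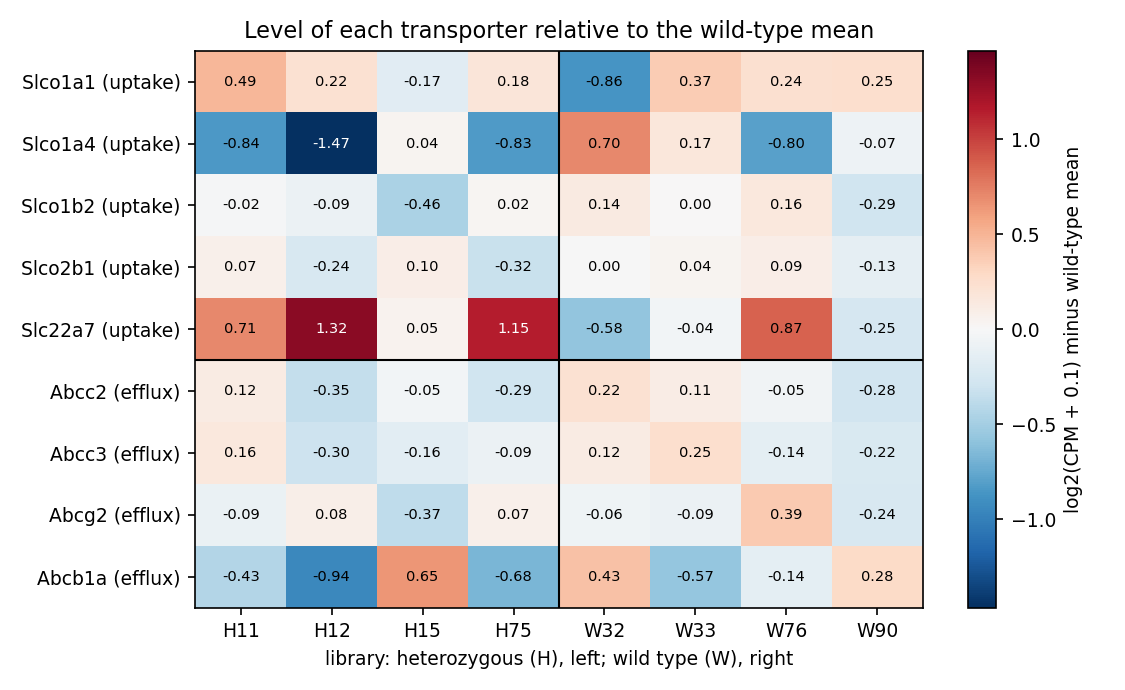
Log2(CPM + 0.1) of each transporter in each library minus the wild-type mean, in 9 rows (uptake above efflux) and 8 columns (heterozygous libraries left of wild-type libraries). Strong colours sit in the rows of Slco1a4, Slc22a7 and Abcb1a, from -1.47 (Slco1a4 in H12) to 1.32 (Slc22a7 in H12), and in W32 for Slco1a1.

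The genes most alike in pattern to each transporter over the 8 libraries were found by Pearson's r of log2 CPM among 11337 genes. They share libraries and depth, and the highest of so many values is high by selection. Slc22a7 was most like Mup16, a major urinary protein gene (r = 0.99), and Slco1a4 most like Tnfaip8 (r = 0.96). Mup16 averaged 901 CPM in heterozygous and 421 CPM in wild-type livers. Tnfaip8 was low, at 1.26 and 1.38 CPM in the same order, with a log2 fold change of -0.13. Slco1a1 was most like another organic anion carrier, Slc22a28 (r = 0.95), but this rested on the library extremes: Spearman's rho was 0.38, and r was -0.11 without W32 and H15. The other genes were Arhgap5 for Slco1b2, Mylk for Slco2b1, Ggta1 for Abcc2, Gpatch1 for Abcc3, Tpmt for Abcg2 and Arhgap27 for Abcb1a, with r of 0.95 to 0.99.

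Other carriers and pumps of the hepatocyte gave 0 calls as well. Of 20 further uptake carriers 16 were tested, 6 with higher and 10 with lower means, and 1 was lower at an unadjusted p under 0.05 (background 4.44% lower). That gene was Slc22a15, at 9.66 ± 1.95 CPM in heterozygous and 13.1 ± 1.01 CPM in wild-type livers, with no overlap (adjusted p = 0.442, edgeR). Over the 16 tested, the groups did not overlap in 1 lower and 1 higher gene, beside 4.38% of all genes. Slc10a1 (NTCP), the main sodium-dependent bile acid carrier, averaged 426 ± 69.1 and 513 ± 33.3 CPM in the same order of groups (log2 fold change -0.27, SE 0.12). Slc22a3 had a log2 fold change of -0.64 and Slc22a27 of -1.60. Slc22a27 was at 0.954 ± 1.13 CPM in heterozygous and 2.88 ± 2.46 CPM in wild-type livers (SD, n = 4 each).

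Of 15 further efflux genes 12 were tested, 8 with higher and 4 with lower means. At an unadjusted p under 0.05, 1 was higher (Abcb1b, background 4.90% higher) and 1 lower. The lower one was Slc47a1 (MATE1), a canalicular exporter of organic cations, at 128 ± 21.5 CPM in heterozygous and 161 ± 17.3 CPM in wild-type livers (log2 fold change -0.33, SE 0.13, adjusted p = 0.486, edgeR). The bile salt export pump Abcb11 had a log2 fold change of -0.16 and the phospholipid flippase Abcb4 of 0.19.

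Regulators and scaffolds of these genes showed no call among 24 tested of 26 listed, with 9 higher and 15 lower means. At an unadjusted p under 0.05 (edgeR), 1 was higher and 2 lower, beside 4.90% and 4.44% of all genes. The groups did not overlap in 1 higher and 1 lower gene of the 24, beside 4.38% of all genes. Esr1, the oestrogen receptor α gene, was at 13.6 ± 1.95 CPM in heterozygous and 20.5 ± 4.31 CPM in wild-type livers, without overlap (log2 fold change -0.59, SE 0.16, adjusted p = 0.366, edgeR). Hnf4a, a nuclear receptor that maintains hepatocyte expression, was at 633 ± 76.9 and 516 ± 19.6 CPM, heterozygous before wild type, also without overlap (log2 fold change 0.30). Rdx, the actin linker radixin that anchors Abcc2 at the canaliculus, had a log2 fold change of -0.22, and the scaffold Pdzk1 of -0.18. The xenobiotic receptors Nr1i2 (PXR) and Nr1i3 (CAR), named after their values were seen, had log2 fold changes of -0.034 and -0.16.

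Of 20 genes inducible through CAR, PXR, AHR or NRF2, pathways that also induce some of these pumps, 10 had higher and 10 lower means and 0 were called. At an unadjusted p under 0.05, 4 were higher and 3 lower, beside 4.90% and 4.44% of all genes. Cyp3a13 averaged 172 ± 27.0 CPM in heterozygous and 119 ± 8.01 CPM in wild-type livers (log2 fold change 0.53, adjusted p = 0.333, edgeR). Por, the reductase that serves cytochromes P450, averaged 215 ± 35.9 and 148 ± 28.0 CPM, and Cyp1a2 587 ± 78.4 and 413 ± 78.3 CPM, heterozygous before wild type. Gclc, an NRF2 target of glutathione synthesis, averaged 234 ± 9.88 and 300 ± 28.1 CPM in the same order (log2 fold change -0.36). The groups did not overlap in these 4 genes, nor in 2 others of the list, which makes 6 of 20 (4 higher, 2 lower) beside 4.38% of all genes.

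Acute phase genes and male-predominant genes were also high in H11, H12 and H75, the heterozygous libraries in which Slc22a7 was high. Of 28 acute phase genes 27 were tested, and all 27 had higher means in heterozygous livers with 0 called. Their summed level was 25569 to 42667 CPM in heterozygous and 22028 to 26143 CPM in wild-type libraries, and the most abundant were C3 and Fga. At an unadjusted p under 0.05, 20 of the 27 were higher, beside 4.90% of all genes. The groups did not overlap in 2 of the 27, beside 4.38% of all genes. Relative to the wild-type mean, the list median was 0.56, 1.29, 0.10 and 1.15 in H11, H12, H15 and H75, against 0.18, -0.051, -0.046 and -0.080 in W32, W33, W76 and W90. H15 was lowest among heterozygous libraries for this list and for Slc22a7, and highest for Slco1a4 and Abcb1a. W76, high in Slc22a7 and low in Slco1a4, was near 0 for the list.

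Of the 18 male-predominant liver genes, 17 had higher means in heterozygous livers with 0 called, and the most abundant were the urinary protein genes Mup7 and Mup20. At an unadjusted p under 0.05 (edgeR), 5 of the 18 were higher and 0 lower, beside 4.90% and 4.44% of all genes. In 0 of the 18 did the groups separate, beside 4.38% of all genes. The list median was 0.45, 0.93, -0.074 and 0.76 in H11, H12, H15 and H75, against -0.92, 0.26, 0.49 and 0.047 in W32, W33, W76 and W90. Of the wild-type libraries, W76 was highest and W32 lowest, as for Slc22a7. Of 21 female-predominant genes 9 were tested, with 4 higher and 5 lower means and 0 called, and their median was highest in H15 (1.03) and W32 (0.95). The most abundant of these were Cyp2c40 and Acot3. Neutrophil markers had medians of 1.65, 1.59, -0.14 and 2.14 in H11, H12, H15 and H75, against 0.45, 0.16, 0.12 and -0.48 in W32, W33, W76 and W90. They were lowest in H15 among heterozygous libraries, as was Slc22a7, but highest in W32 among wild-type libraries, where Slc22a7 was lowest. The part of any of these lists in the transporter values was not tested.

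**Figure D5:**
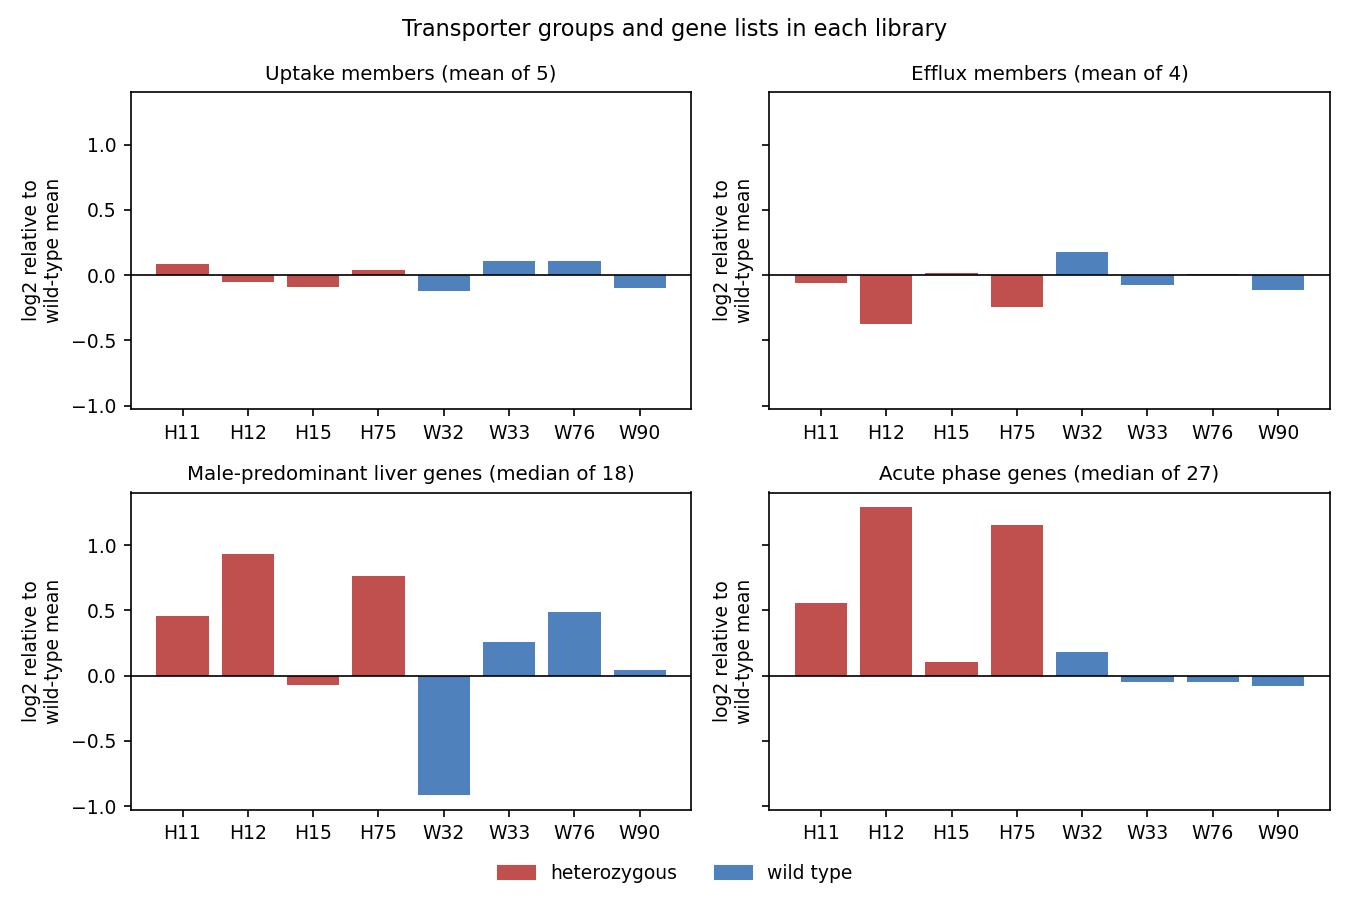
Mean log2 level of the 5 uptake and 4 efflux transporters (top) and median log2 level of 18 male-predominant and 27 acute phase genes (bottom), each relative to the wild-type mean, for heterozygous (red) and wild-type (blue) libraries. H12 and H75 have the highest bars in both lower panels, W32 has the lowest in the male-predominant panel, and the transporter panels stay between -0.38 and 0.18.

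Markers of other liver cells overlapped between the genotypes in summed level in each of the 6 lists, and 0 of their genes were called, although the means often leaned one way. Kupffer cell markers (8 of 8 tested, led by Clec4f and Cd5l) summed to 99.6 to 237 CPM in heterozygous and 93.3 to 236 CPM in wild-type libraries, with 8 of 8 means higher. Sinusoidal endothelial markers (9 of 9, led by Stab1 and Clec4g) summed to 209 to 316 and 189 to 263 CPM, and stellate markers (8 of 8, led by Dcn and Ecm1) to 150 to 367 and 259 to 321 CPM, heterozygous before wild type. Means were higher for 8 of 9 endothelial markers, 1 of them at an unadjusted p under 0.05 (background 4.90% higher). They were lower for 7 of 8 stellate markers. Cholangiocyte markers (6 of 7, led by Spp1 and Sox9) summed to 51.9 to 119 CPM in heterozygous and 48.1 to 105 CPM in wild-type libraries, with 5 of 6 means higher and 1, Sox9, at an unadjusted p under 0.05. Their median was highest in H15 (1.32) and W90 (0.85), libraries in which Abcb1a was also high, although W32, with 4.73 CPM of Abcb1a, was at -0.22. Sox9 did not follow this median: it was at 44.8 CPM in H12 and 20.2 CPM in H75. In H11 and H15 it was at 8.84 and 8.24 CPM, against 7.90 to 9.57 CPM in wild-type libraries. Neutrophil markers (3 of 7, led by Il1b and S100a9) summed to 1.10 to 6.00 CPM in heterozygous and 0.719 to 1.91 CPM in wild-type libraries. All 3 were higher at an unadjusted p under 0.05 (edgeR), beside 4.90% of all genes, with a median log2 fold change of 1.74. Counts were low, for S100a9 2 to 64 per heterozygous and 5 to 13 per wild-type library. The filter on low counts left out the rest of the list, and a gene high in 1 group alone can pass it. Of 5 adipocyte markers only Cidec, which hepatocytes also express, was tested. Its log2 fold change was -1.21 (SE 0.36, adjusted p = 0.392, edgeR), and Adipoq had at most 2 counts. The part of these markers in the transporter values was not tested.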

How the data were processed

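RNA cleared of ribosomal RNA, from 8 livers, was sequenced, per the labels' protocols. The submitters' processing notes name the build mm10 and, without roles, SAMtools 1.9, GATK 3.8, Bowtie2 2.2.9 and fastp 0.19.5. No source used here names the program that counted reads. The deposited table holds estimated counts per gene, not normalized, of which 90.0% equal a whole number with no tolerance. This share was taken over all 56077 rows and counts zeros as whole numbers. A second table deposited by the authors gives each gene's length, p-value, log2 fold change and linear fold, a ratio, per the file headers. Columns were put in groups by their first letter.

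Estimated counts were rounded, filtered with filterByExpr, scaled by TMM (factors of 0.900 to 1.06) and compared by group alone in edgeR 4.0.16 (R 4.3.3, quasi-likelihood test, Benjamini-Hochberg adjustment over 14261 genes). A standard error is the log2 fold change divided by the square root of F, and 95% intervals use its degrees of freedom. Log2 levels relative to the wild-type mean use log2(CPM + 0.1). DESeq2 1.42.0, limma 3.58.1 (voom), other scalings and filters, and leaving out each library were alternatives. Words of 50 bases shared between transcripts were counted in place of a protein comparison, which was not run. Coordinates are GENCODE M21 on GRCm38, the assembly mm10 denotes, and sequences are RefSeq GRCm38.p6. Named genes are the 9 members, Eif2s1, the gene most alike to each member, the 4 of lowest p in each pathway list and the 2 most abundant of each marker list. Other names were chosen after their values were seen. Members and lists were chosen with earlier results of these data known.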

Additional observations from a re-analysis of the deposited data

Results flagged for a closer look

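Slco1a1 in wild-type library W32 stood apart from the other 3 wild-type libraries, at 186 CPM against 399 to 439 CPM, with a gap to the nearest library of 0.841 of the group's range (Dixon's limit for 4 samples is 0.829). It was the 1 such value among 22 groups of 4 examined, where chance flags about 1 in 20. Some of the genes named after their values were seen showed W32 apart as well, and others did not. Hsd3b5, a male-predominant steroid dehydrogenase, was at 8.07 CPM in W32 and 95.4 to 108 CPM in the other wild-type libraries, and C6 at 89.7 CPM in W32 and 225 to 268 CPM in the others. Cyp2b9, a female-predominant cytochrome P450 left out by the filter on low counts, had at most 8 counts in a heterozygous library, 893 in W32 and 4 to 30 in the other wild-type libraries. In other genes W32 stood with W90. Selenbp2 was at 25.7 and 64.7 CPM in W32 and W90, against 236 and 417 CPM in W33 and W76. Acot3, on the female-predominant list, was at 41.6 and 26.0 CPM in W32 and W90, against 5.40 and 5.67 CPM in W33 and W76. Cyp2a4, on the same list, had 116 counts in W32 but also 60 in H11. Ddx3y was at 56.8 CPM in W32.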

How the results depend on the processing

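Across 17 alternative settings 0 of the 9 transporters passed an adjusted p of 0.05, or of 0.1 where that was the threshold. Slco1a4, Slco1b2, Slco2b1, Abcc2, Abcc3 and Abcb1a kept negative and Slc22a7 positive log2 fold changes in all 17. Slco1a1 ran from -0.088 (without W32) to 0.24 (without W33) and Abcg2 from -0.16 (without W90) to 0.062 (without W76) when 1 library was left out, with Abcg2 at 0.0031 without H15. The cause was not tested. The number of genes called over the whole table was 0 with edgeR, where 1332 had an unadjusted p under 0.05, and 0 with limma-voom. It was 150 with DESeq2, 18 with no filter, 1 with the newer quasi-likelihood method, 1 at an adjusted p under 0.1, and 0 to 252 on leaving out a library, with 252 without H15 and 2 without W32. Scaling by library totals alone shifted the median over all genes by -0.086 (log2). The mean log2 difference ran from -0.044 to 0.035 for uptake and from -0.23 to -0.096 for efflux without single libraries. No paired analysis was possible because the columns carry no replicate numbers. At 43 to 139 counts per library, Abcb1a had the largest standard error of the 9 (0.37), followed by Slco1a4 (0.35) and Slc22a7 (0.34). Its interval holds the differences compatible with these data and is not a limit of detection.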
